A study of Mus musculus with 3 samples.

Results

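The cornified envelope and barrier genes were followed in the keratinocytes of mouse skin inflamed by MC903, also called calcipotriol, which is an analogue of vitamin D. The 46 genes were chosen by symbol among the 31253 genes listed for the skin libraries. They were the symbols that start with Sprr or Lce and a number, plus Flg, Flg2, Hrnr, Ivl, Rptn, Krtdap, Tgm1, Tgm3, Casp14 and Cdsn. They made up 15 Sprr genes, 21 Lce genes, 4 genes of the S100-fused type, 2 transglutaminases, Ivl, Krtdap, Casp14 and Cdsn, and 41 of them lay on chromosome 3. The study asks how psychological stress worsens skin inflammation through sympathetic nerves and eosinophils. One skin library, called RHS here, held cells of mice treated with RHS and MC903, and the other, called control, held cells of mice treated with MC903 alone. The labels do not expand RHS, and give no strain, sex, age, genotype or number of mice behind each skin library. Another library, of sympathetic ganglia, was not used.

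The cornified envelope is the protein shell that replaces the plasma membrane of keratinocytes at the end of their differentiation. Transglutaminases crosslink involucrin (Ivl), the small proline-rich proteins (Sprr) and the late cornified envelope proteins (Lce) beneath the membrane. Filaggrin (Flg) and its relatives Flg2, Hrnr and Rptn are made in keratohyalin granules, and Casp14 is a protease needed to break filaggrin down. Corneodesmosin (Cdsn) holds corneocytes together, and Krtdap is a small secreted protein of differentiating keratinocytes. Most of the genes sit side by side in the epidermal differentiation complex, and many follow the AP-1 factors of the Fos and Jun families.

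Promoter sequences are shown because many of these genes are known to follow AP-1 factors, and the AP-1 motif was present in some of the families and absent from others. RefSeq promoters of the build GRCm38.p6 (from 250 bases before to 50 bases after each annotated start) were found for 44 of the 46 genes. The AP-1 motif TGANTCA lay in 14 of the 44, and in 7.81% of all 32851 promoters of this length. The TATA motif TATAAA lay in 20 of the 44, and in 13.6% of all promoters. Both strands were searched, and no match of one motif overlapped a match of the other. The 200 bases before the start of 6 members follow, 5′ to 3′ on the gene's strand, with matches of either motif in capitals. Sprr1a, Sprr2h, Ivl, Krtdap and Flg carry the levels described here, and Lce1m stands for the family without an AP-1 match.
Sprr1a, chr3:92485882-92486081, minus strand: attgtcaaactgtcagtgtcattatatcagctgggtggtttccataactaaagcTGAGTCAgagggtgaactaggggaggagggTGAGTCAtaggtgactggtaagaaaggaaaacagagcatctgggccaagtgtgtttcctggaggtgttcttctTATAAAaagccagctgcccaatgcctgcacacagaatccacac
Sprr2h, chr3:92385485-92385684, plus strand: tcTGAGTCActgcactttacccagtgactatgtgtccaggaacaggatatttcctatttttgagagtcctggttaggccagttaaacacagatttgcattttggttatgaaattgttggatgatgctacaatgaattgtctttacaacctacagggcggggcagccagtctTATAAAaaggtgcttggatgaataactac
Ivl, chr3:92573736-92573935, minus strand: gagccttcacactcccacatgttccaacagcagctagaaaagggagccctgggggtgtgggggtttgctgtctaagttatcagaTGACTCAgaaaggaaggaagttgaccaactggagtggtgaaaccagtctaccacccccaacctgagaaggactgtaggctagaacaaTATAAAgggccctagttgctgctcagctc
Krtdap, chr7:30787705-30787904, plus strand: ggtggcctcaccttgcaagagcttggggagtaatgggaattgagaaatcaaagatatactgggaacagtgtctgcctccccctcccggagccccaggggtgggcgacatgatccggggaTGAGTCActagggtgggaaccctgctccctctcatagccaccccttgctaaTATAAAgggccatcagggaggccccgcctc
Flg, chr3:93273346-93273545, plus strand: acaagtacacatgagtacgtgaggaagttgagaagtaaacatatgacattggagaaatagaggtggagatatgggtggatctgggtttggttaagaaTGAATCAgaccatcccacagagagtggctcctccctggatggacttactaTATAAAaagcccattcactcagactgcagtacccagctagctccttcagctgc
Lce1m, chr3:93019062-93019261, minus strand: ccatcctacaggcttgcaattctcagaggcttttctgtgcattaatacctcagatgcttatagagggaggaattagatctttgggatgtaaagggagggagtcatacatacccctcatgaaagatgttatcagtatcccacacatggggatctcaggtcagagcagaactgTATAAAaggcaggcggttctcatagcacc

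AP-1 matches were found in 9 of the 14 Sprr promoters, in 3 of the 4 of the S100-fused genes, and in those of Ivl and Krtdap. None was found in the 20 Lce promoters, or in those of Tgm1, Tgm3, Casp14 and Cdsn. Sprr1a had 2 matches, at 146 and 116 bases before the start, and Ivl had 1 at 116 bases. In the Sprr2 genes the match lay farther out, between 198 and 193 bases before the start, with another at 182 in Sprr2k. TATA matches lay in 10 Sprr promoters and in 4 of the 20 Lce promoters, mostly near 30 bases before the start. The 7 Sprr2 promoters with a match belong to related gene copies, so their matches are not independent. The promoters of Sprr2a1, Sprr2a2 and Sprr2a3 held no match of either motif. Their windows end within a stretch that resembles the one just before the TATA match of Sprr2b. Their annotated starts thus lie farther upstream of this stretch, and the absence of a TATA match describes these windows and not the genes. A match describes the letters of the window and no binding was measured.

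**Figure D1:**
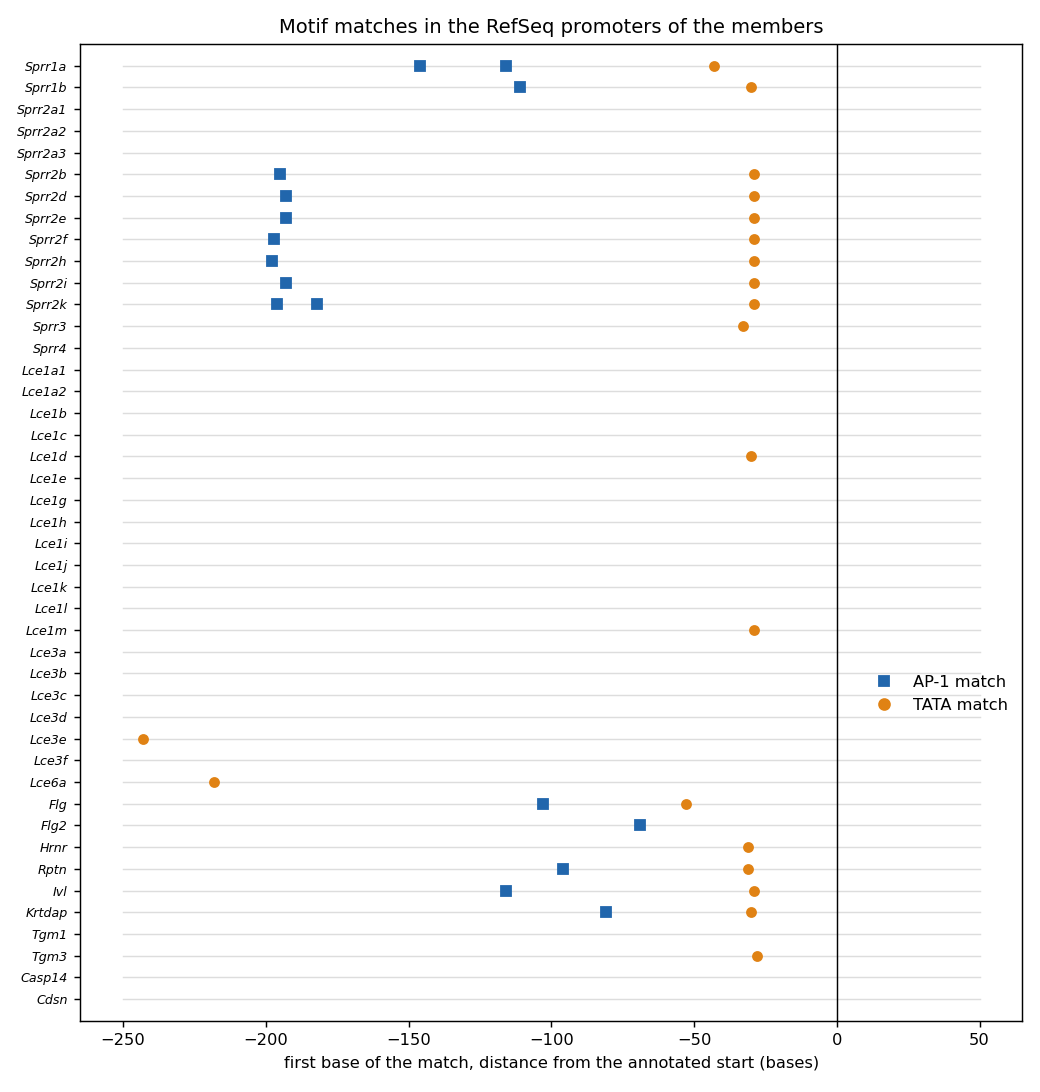
Matches of the AP-1 motif (squares) and the TATA motif (circles) in the RefSeq promoters of members that hold one, by distance from the annotated start in bases (x axis), with one line per gene (y axis). The AP-1 matches of the Sprr2 genes line up between 198 and 182 bases before the start, while those of Sprr1a, Ivl and Krtdap lie nearer to it.

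Keratinocytes were a side population, since the cells had been enriched with CD45 beads for immune cells. After filtering, 699 of 12953 cells of the RHS library and 1410 of 12577 cells of the control library fell into keratinocyte-like clusters. These clusters carried 13, 15 and 10 of 15 keratinocyte markers, and Ptprc, which encodes CD45, had 13.37 CPM in RHS and 4.367 in control in them (CPM are a gene's counts scaled to the same library size). UMIs (unique molecular identifiers, each a counted transcript) numbered 52762575 in the RHS library and 55200785 in the control library. The keratinocyte-like cells held 4861076 UMIs in RHS and 10534067 in control, with a median of 5829 per cell in RHS and 6676 in control and a median mitochondrial share of 9.342% in RHS and 8.265% in control. The libraries shared 5 barcodes, 0 of them keratinocyte-like. With 1 library per group there is no replicate and no test. All intervals are 95% intervals that cover counting error only, and the spread between mice is not known.

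The keratinocyte-like cells formed 6 sub-clusters with at least 50 cells in each library. A differentiated-like sub-cluster of 170 cells in RHS and 360 in control was led by Krt1, Calm4, Krt10, Krtdap and Defb6 and carried 8 of 12 differentiated and 6 of 10 upper follicle markers. A sub-cluster of 165 cells in RHS and 182 in control, led by Lcn2, Cxcl1 and Akr1c18, matched no marker list and stayed unnamed. A lower follicle-like sub-cluster held 66 cells in RHS and 92 in control and carried 7 of 14 lower follicle and 6 of 10 basal markers, with marker scores of 1.0 and 0.99, so that name is close to a tie with basal cells. A cycling follicle-like one, led by Krt25, Dlx3 and Krt28 and with 10 of 10 cycling and 7 of 14 lower follicle markers, held 52 cells in RHS and 492 in control. The sebaceous-like cells split into a Car5b sub-cluster of 81 cells in RHS and 112 in control and an Elovl3 sub-cluster of 139 cells in RHS and 135 in control, with 3 and 10 of 10 sebaceous markers. Small groups of 12 cells in RHS and 17 in control and of 14 cells in RHS and 20 in control, mixed with T cell or macrophage genes, were counted among the keratinocytes but not compared. The cycling follicle-like cells made up a much smaller part of the RHS library, so levels were compared within each sub-cluster.

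The members gave 16380 UMIs in RHS keratinocytes and 23031 in control keratinocytes, which is 3370 CPM in RHS and 2186 in control. A single gene, Sprr1a, which encodes a small proline-rich envelope precursor, made up 13606 (83.06%) of these UMIs in RHS and 19246 (83.57%) in control. It was found in 413 cells in RHS and 870 in control. Krtdap followed with 1597 UMIs in RHS and 2431 in control, which is 9.75% of the members' UMIs in RHS and 10.56% in control. These are shares of counted UMIs, not corrected for transcript length. The next members were Sprr1b with 479 UMIs in RHS and 424 in control, Ivl with 238 in RHS and 234 in control, Sprr2h with 121 in RHS and 214 in control, and Casp14 with 109 in RHS and 142 in control. Flg gave 78 UMIs in RHS and 15 in control, from 4 cells in each library, and Cdsn gave 64 in RHS and 70 in control.

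Most of the list was hardly seen. Over both libraries 14 of the 46 members reached 20 UMIs in keratinocytes, 21 had none there, and 10 had none in any skin cell. The 21 Lce genes gave 5 UMIs in RHS keratinocytes and 2 in control keratinocytes. These came from Lce1f (2 in RHS and 1 in control), Lce3d (2 in RHS and 0 in control), Lce1c (1 in RHS and 0 in control) and Lce3f (0 in RHS and 1 in control), and the other Lce genes were at 0. Of the Sprr family, Sprr2a3 gave 33 UMIs in RHS and 60 in control, Sprr2f 3 in RHS and 58 in control, and Sprr2d 2 in RHS and 24 in control. Sprr2a2 gave 12 in RHS and 16 in control, Sprr2e 1 in RHS and 8 in control, Sprr2i 1 in RHS and 3 in control, Sprr2j-ps 0 in RHS and 2 in control, and Sprr4 1 in RHS and 0 in control. Sprr2a1, Sprr2b, Sprr2k and Sprr3 were at 0 in the keratinocytes of both libraries. A count of 0 among 699 cells in RHS and 1410 in control allows a share of cells with a UMI of up to 0.4292% in RHS and 0.2128% in control. The S100-fused genes other than Flg were also near 0, with 10 Hrnr UMIs in RHS and 0 in control, 5 Rptn UMIs in RHS and 0 in control, and 0 Flg2 UMIs in RHS and 1 in control. The crosslinking enzymes were sparse, with 13 Tgm1 UMI in RHS and 57 in control and 2 Tgm3 UMIs in RHS and 24 in control. Sprr2 and Lce genes are near copies of each other and Sprr2a1 overlaps Sprr2a2 on the same strand, so the counting program could have split or dropped their reads, and single Sprr2 counts are uncertain. The annotation also places Rplp0-ps1 over Flg, Gm37245 over Hrnr and Rptn, Gm49067 over Tgm1 and Mir6339 over Tgm3.

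Sprr1a was high in several keratinocyte types rather than in the differentiated-like cells alone. In RHS cells its level was 5210 CPM in the Lcn2 and Akr1c18 sub-cluster, 3892 (3753 to 4036) in differentiated-like, 3706 (3573 to 3842) in Car5b sebaceous-like, 1097 in Elovl3 sebaceous-like, 242 in lower follicle-like and 224.1 in cycling follicle-like cells. The intervals of differentiated-like and Car5b cells overlapped, as did those of lower and cycling follicle-like cells. In control cells the order was 4985 CPM in the Lcn2 and Akr1c18 sub-cluster, 3239 in Car5b, 2393 in differentiated-like, 904.5 in Elovl3, 719.5 in cycling and 290.8 in lower follicle-like cells. The Lcn2 and Akr1c18 sub-cluster was highest in both libraries, and there 89.7% of cells in RHS and 92.86% in control had a Sprr1a UMI. In T cell-like cells, which should lack the gene, Sprr1a had 10.13 CPM in RHS and 10.73 in control and a UMI in 1.835% of cells in RHS and 2.103% in control, at medians of 1947 UMIs per cell in RHS and 2080 in control. Over both libraries it had 2134 CPM in keratinocyte-like cells and 9.752 CPM in all other cells.

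**Figure D2:**
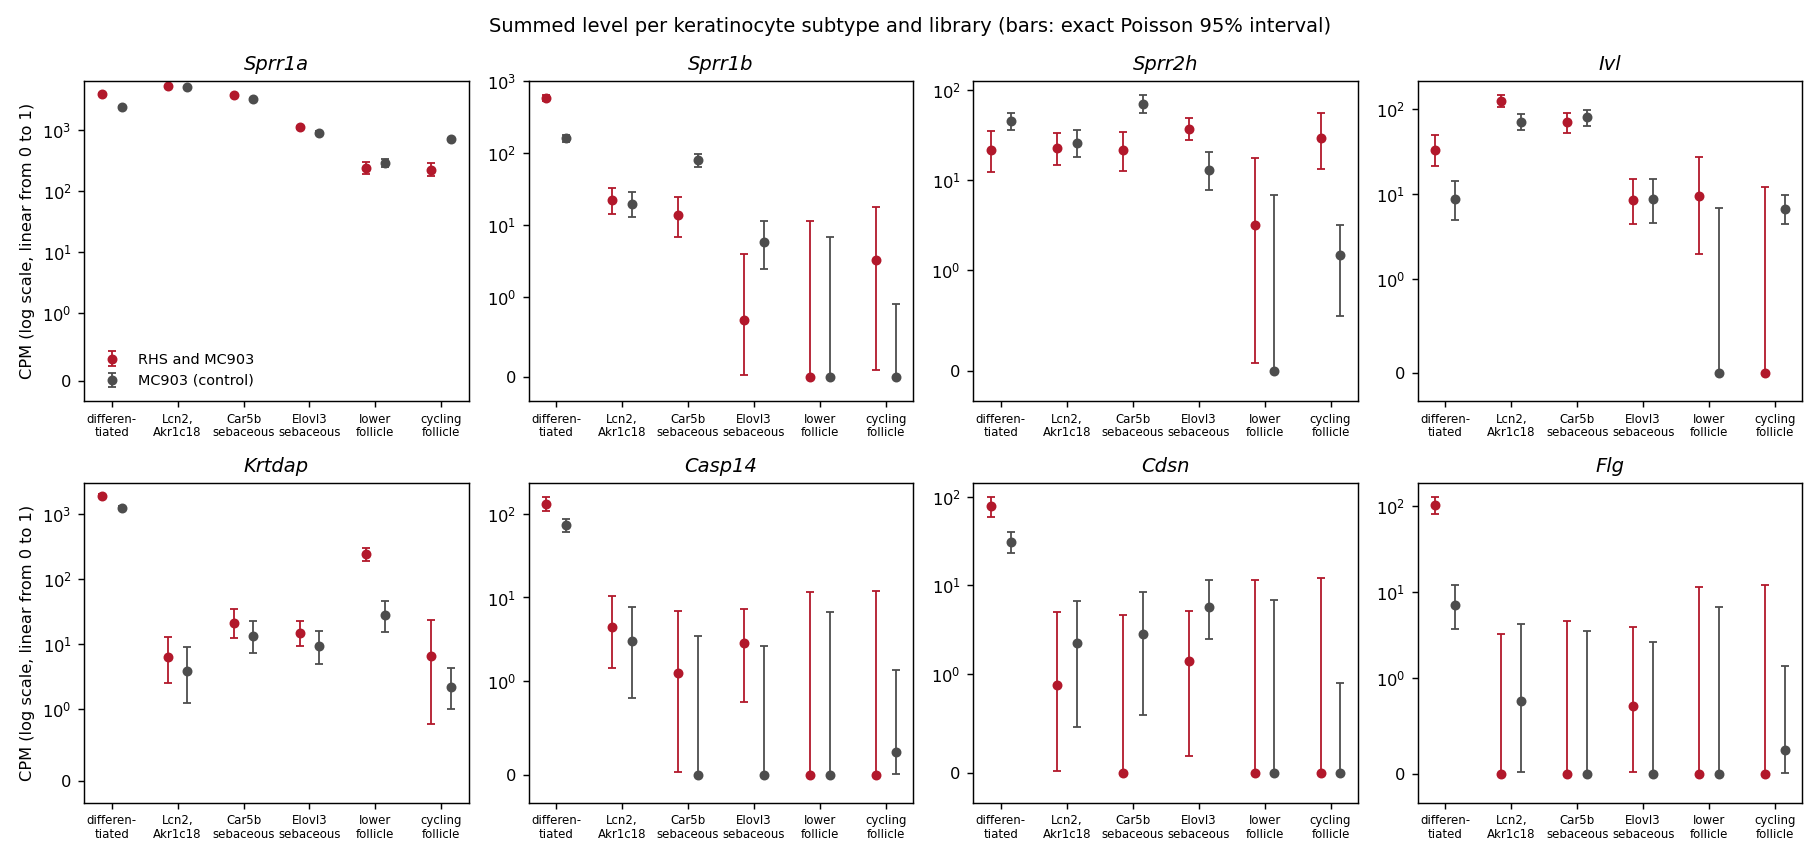
Level of 8 members in CPM (logarithmic y axis) in the 6 keratinocyte sub-clusters (x axis), with RHS and MC903 points left of control points and bars for 95% Poisson intervals of the summed counts. Sprr1a stays above 200 CPM in each sub-cluster, while Krtdap, Casp14 and Cdsn peak in differentiated-like cells.

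The other members divided into those held by differentiated-like cells and those spread elsewhere. Of the UMIs in the 6 sub-clusters over both libraries, differentiated-like cells held 95.46% for Krtdap, 93.93% for Casp14, 96.77% for Flg, 87.02% for Cdsn and 82.55% for Sprr1b. They held 93.44% for Sprr2f and 96.15% for Sprr2d, both Sprr2 envelope precursors, and 66.67% for Sprr2a3. They held 22.8% for Sprr1a, 29.43% for Sprr2h, 37.68% for Tgm1 and 8.742% for Ivl. Ivl, the early envelope scaffold, was highest in the Lcn2 and Akr1c18 sub-cluster, with 125 CPM in RHS and 71.23 in control, and in Car5b sebaceous-like cells, with 70.16 CPM in RHS and 79.97 in control. In differentiated-like cells it had 33.3 CPM in RHS and 8.698 in control. Krt1 and Krt10, whose products are the keratins of suprabasal epidermis, led the differentiated-like sub-cluster, and so did Krtdap, although the members had been left out of the genes used to form the clusters.

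In differentiated-like cells the members together had 6842 CPM in the RHS library and 4078 CPM in the control library, a ratio of 1.678 (1.619 to 1.739). Sprr1a gave 2922 UMIs in RHS and 4403 in control, or 3892 CPM in RHS and 2393 in control, a ratio of 1.626 (1.551 to 1.705). Krtdap gave 1452 UMIs in 78 RHS cells and 2333 UMIs in 148 control cells, or 1934 CPM in RHS and 1268 in control, a ratio of 1.525 (1.427 to 1.629). Both were higher in the RHS library by more than counting error. The share of cells with a UMI did not follow for Sprr1a, at 52.94% in RHS and 64.17% in control, and at 55.67% in RHS and 59.09% in control after each cell was thinned to 2400 UMIs. For Krtdap it was 45.88% in RHS and 41.11% in control, and 48.45% in RHS and 45.45% in control after thinning, against 0.7103% of T cell-like cells in RHS and 0.7711% in control. The median Sprr1a level per cell was 2.475 UMIs per 10000 in RHS and 9.098 in control, so the higher sum in RHS cells was not seen in the middle cell.

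Sprr1b, the second Sprr1 gene, gave 440 UMIs in 22 RHS cells and 298 UMIs in 53 control cells, or 586.1 CPM in RHS and 162 in control, a ratio of 3.618 (3.116 to 4.206). Casp14 gave 98 UMIs in RHS and 134 in control, or 130.5 CPM in RHS and 72.84 in control, a ratio of 1.792 (1.367 to 2.343). Cdsn gave 58 UMIs in 7 RHS cells and 56 UMIs in 6 control cells, or 77.26 CPM in RHS and 30.44 in control, a ratio of 2.538 (1.727 to 3.732). All were higher in the RHS library, and all came from few cells. Ivl gave 25 UMIs in RHS and 16 in control, a ratio of 3.829 (1.965 to 7.675), with 10 of the 25 in a single cell. Flg gave 77 UMIs in 3 RHS cells and 13 UMIs in 2 control cells, or 102.6 CPM in RHS and 7.067 in control, a ratio of 14.51 (8.007 to 28.49). Hrnr, the filaggrin relative hornerin, gave 10 UMIs in 2 cells and none in the control library. With control set at a floor of 3 counts its ratio was 8.168, which is no interval limit. Its 10 UMIs are too few for the count below.

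Among the Sprr2 genes 3 were lower in the RHS library and none was higher. Sprr2h gave 16 UMIs in RHS and 82 in control, or 21.31 CPM in RHS and 44.57 in control, a ratio of 0.4782 (0.2611 to 0.8236). Sprr2d gave 1 UMI in RHS and 24 in control, the 24 from 3 cells, or 1.332 CPM in RHS and 13.05 in control. Sprr2f gave 0 UMIs in RHS and 57 in control, the 57 from 14 cells with 33 in a single cell. With RHS set at a floor of 3 counts its ratio was 0.129. In all 3 genes the interval or the value at the floor lay below 1. The Sprr2h UMIs came from 6 cells in RHS and 32 in control, so these ratios rest on few cells. Sprr2a3 gave 22 UMIs in RHS and 38 in control, a ratio of 1.419 (0.7993 to 2.461), whose interval includes no difference. Tgm1, the membrane-bound transglutaminase, gave 7 UMIs in RHS and 19 in control, or 9.325 CPM in RHS and 10.33 in control, and Tgm3 gave 1 UMI in RHS and 17 in control, 14 of the 17 in a single cell. Neither enzyme reached 20 UMIs in a library. The Lce genes gave 2 UMIs in each library.

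A member was counted as higher or lower past a ratio of 1.5 either way, with at least 20 UMIs in the library with the higher level. In differentiated-like cells 11 of the 46 members could be counted, and 7 were higher in the RHS library: Sprr1a, Sprr1b, Krtdap, Casp14, Cdsn, Flg and Ivl. The same rule gave 6.63% of 6639 genes. The 3 members counted as lower, Sprr2h, Sprr2d and Sprr2f, stood beside 13.7% of genes. Of the 11 members, 6 reached 20 UMIs in both libraries. The other 5, Flg, Ivl, Sprr2h, Sprr2d and Sprr2f, reached it only in the library where they were higher and so had to differ, which makes these counts a description and no support. Differentiated-like cells of the RHS library also held more T cell and macrophage markers. The T cell markers summed to 89.25 CPM in RHS and 39.14 in control (8 of 10 with a UMI in each library, Trdc at 0 in both). The macrophage markers summed to 87.92 CPM in RHS and 53.82 in control (7 of 10 with a UMI in RHS and 8 of 10 in control). Melanocyte markers were lower, with 3.996 CPM in RHS and 9.785 in control, and so were Langerhans markers, with 1853 in RHS and 2150 in control. Fibroblast markers had 85.25 CPM in RHS and 75.02 in control, and endothelial markers 5.328 in RHS and 4.892 in control. The part of these other cell types in the result was not tested.

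**Figure D3:**
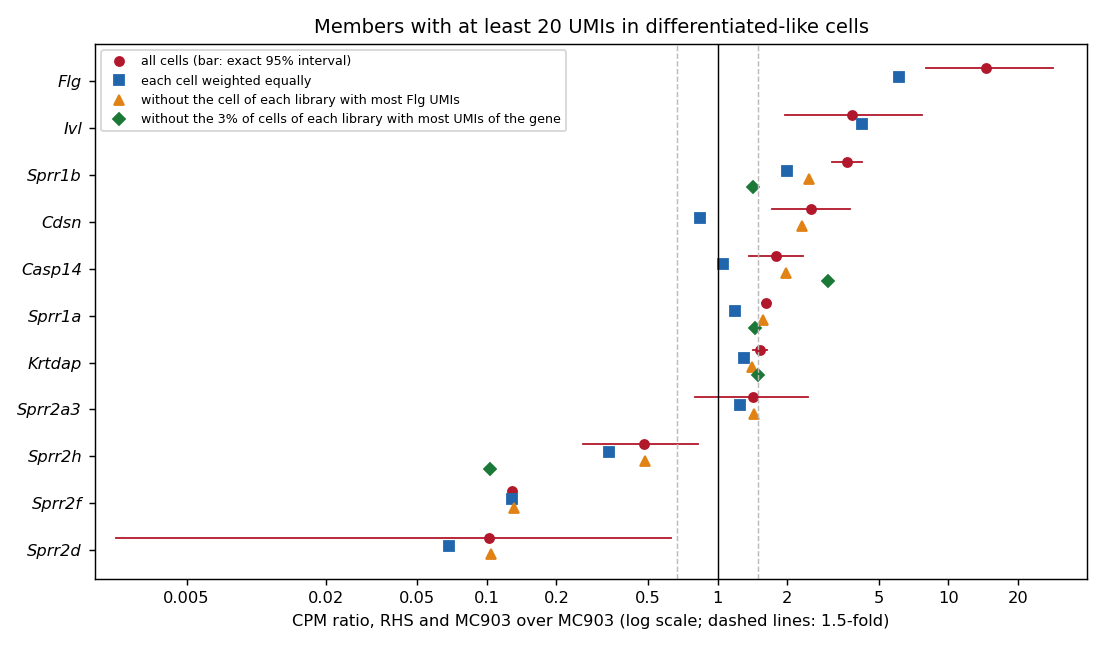
Ratio of RHS and MC903 over control CPM (logarithmic x axis) of the 11 members with at least 20 UMIs in a library of differentiated-like cells, for all cells (circles with 95% intervals), cells weighted equally (squares), without the cell of each library with most Flg UMIs (triangles) and without the 3% of cells of each library with most UMIs of the gene (diamonds). The Sprr2f point is an upper bound. Sprr1b lies at 3.618 for all cells and at 1.425 without the richest 3%, and Sprr1a at 1.626 for all cells and at 1.45 without them.

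Few cells carried these ratios. A single RHS cell of 14527 UMIs held 64 of the 77 Flg UMIs, 7 of the 10 Hrnr UMIs, 43 of the 98 Casp14 UMIs, 19 of the 58 Cdsn UMIs, 142 of the 440 Sprr1b UMIs and 10 of the 25 Ivl UMIs. It also held 238 Sprr1a, 162 Krtdap, 270 Krt1 and 582 Krt10 UMIs, with 5 UMIs of loricrin (Lor), the main envelope protein, and 0 of the basal keratins Krt5 and Krt14. Another of 3329 UMIs held 10 Flg, 3 Hrnr, 4 Rptn, 161 Sprr1a and 123 Krt10 UMIs. The control cell with most Flg, of 4453 UMIs, held 12 Flg, 65 Casp14, 14 Cdsn and 120 Krt79 UMIs, with 0 Krt1 and 1 Krt10 UMI. Of the 4 RHS cells with Flg, the 2 richest held Krt1 and Krt10 UMIs and the others held 0 of both, while the 4 control cells with Flg held at most 1 UMI of these keratins.

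Without the cell with most Flg UMIs in each library, 4 members were counted as higher: Sprr1b at 2.493, Cdsn at 2.315, Casp14 at 1.987 and Sprr1a at 1.566. Krtdap was then at 1.409 and all members together at 1.535, and Flg, with 13 UMIs in RHS and 1 in control, and Ivl, with 15 in each, were below the minimum. Without the richest 3% of cells by the UMIs of the gene, which is 5 cells in RHS and 11 in control, 1 member was counted as higher, Casp14 at 3.015 with 23 UMIs in RHS and 19 in control. Sprr1b was then at 1.425, Sprr1a at 1.45, Krtdap at 1.495 and all members at 1.407. Cdsn, Flg and Ivl left the count because 5 UMIs or fewer remained in each library, so nothing can be said of their ratios. Leaving out 5 cells of each library takes a larger part of the 170 RHS cells than of the 360 control cells, and it gave 0.8951 for Sprr1b, 1.241 for Sprr1a, 1.255 for Krtdap and 1.235 for all members. With each cell weighted equally, 3 were counted as higher, Cdsn was at 0.8356 and all members at 1.246. The top 5 cells held 86.59% of Sprr1b UMIs in the RHS library and 41.95% in the control library. For Sprr1a, 7 of 170 RHS cells and 21 of 360 control cells held 50% of the UMIs, and the richest 10% of cells held 79.91% in RHS and 66.36% in control. Sprr1a, Krtdap and the sum stayed above 1 in each of these settings, and the size of the ratio depended on the few richest cells.

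**Figure D4:**
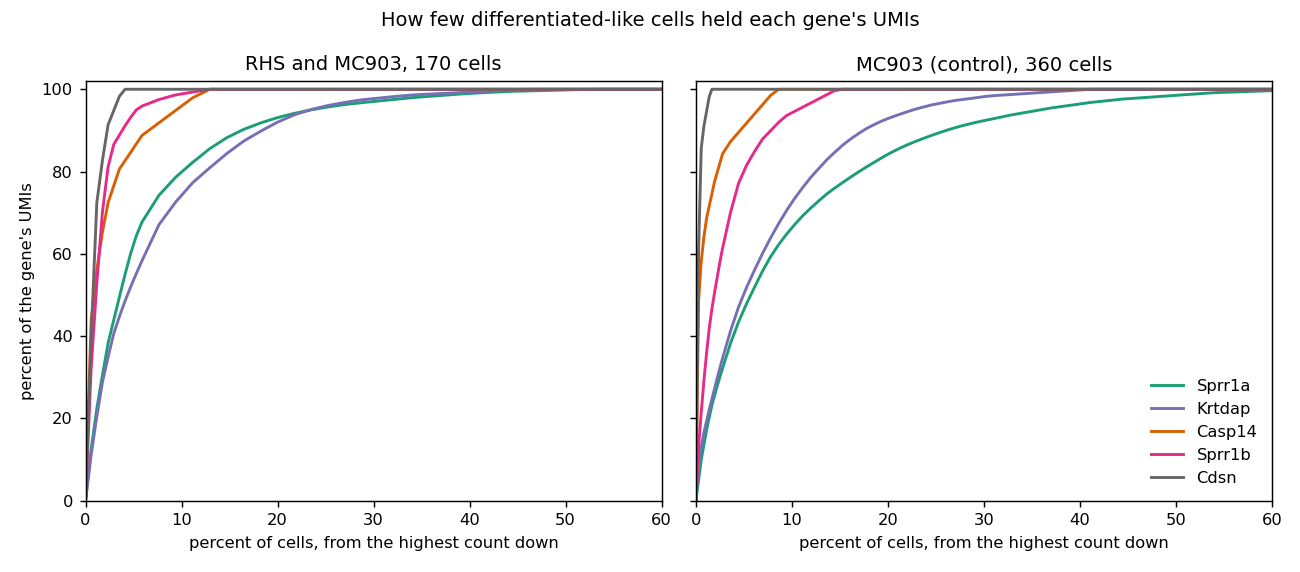
Cumulative share of the UMIs of Sprr1a, Krtdap, Casp14, Sprr1b and Cdsn (y axis, percent) against the share of differentiated-like cells, ordered from the richest (x axis, percent), in the RHS and MC903 and control libraries. The curves rise within the first few percent of cells, and the richest 10% of cells holds 79.91% of Sprr1a UMIs in RHS and 66.36% in control.

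The differentiated-like cells were not of one kind, and the levels of the members differed between groups of these cells formed by their keratins. Krt1 and Krt10 together reached 5 UMIs in 26 cells in RHS and 49 in control, and 30 further cells in RHS and 51 in control had at least 20 UMIs of Krt79, a keratin of the upper hair follicle, without them. In the Krt1 and Krt10 cells Krtdap had 4431 CPM in RHS and 3491 in control, Sprr1a 4542 CPM in RHS and 1943 in control, Sprr1b 1538 CPM in RHS and 425.1 in control and Casp14 364.2 CPM in RHS and 134.1 in control, and Cdsn gave 25 UMIs in RHS and 0 in control. In the Krt79 cells Sprr1a had 7008 CPM in RHS and 4687 in control, Krtdap 2137 in RHS and 1561 in control, Sprr1b 493.5 in RHS and 169 in control, Cdsn 141.6 in RHS and 132.3 in control and Casp14 107.3 CPM in RHS and 183.7 in control. In both groups of cells Sprr1a, Krtdap and Sprr1b were higher in the RHS library by more than counting error, which leaves out the spread between cells. Sprr1b came from 8 RHS and 24 control Krt1 and Krt10 cells, with 142 of 304 RHS UMIs in a single cell. In the Krt79 cells it came from 6 RHS and 8 control cells, with 77 of 115 RHS UMIs in a single cell. Without the richest cell of each library Sprr1a was at 2.498, Krtdap at 1.261 and Sprr1b at 2.389 in the Krt1 and Krt10 cells. In the Krt79 cells Sprr1a was then at 1.33, Krtdap at 1.258 and Sprr1b at 2.424. These values still rest on few cells. Casp14 was at 2.716 (1.879 to 3.949) in the Krt1 and Krt10 cells and at 0.5839 (0.3557 to 0.929) in the Krt79 cells, but these values rest on 1 cell each. A single RHS cell held 43 of the 72 Casp14 UMIs of the first group, and a single control cell held 65 of the 75 of the second. Without the richest cell of each library Casp14 was at 1.535 (0.9179 to 2.539) in the first group, and 16 UMIs in RHS and 10 in control remained in the second. In the remaining cells, 114 in RHS and 260 in control, Sprr1a had 1222 CPM in RHS and 1662 in control and Krtdap 243.8 CPM in RHS and 305 in control, ratios of 0.7353 (0.6571 to 0.8211) and 0.7993 (0.6157 to 1.027), so the first was lower there and the interval of the second includes no difference. Casp14 gave 1 UMI in RHS and 6 in control in these cells. Of the Krt1 and Krt10 cells 6 in RHS and 9 in control lay within 2 UMIs of the boundary of 5, and of the Krt79 cells 2 in RHS and 3 in control lay within 4 UMIs of the boundary of 20. These groups were formed after the values had been seen. Their fixed UMI boundaries also sort cells by depth. The median UMIs per cell were 4711 in RHS and 5854 in control in the Krt1 and Krt10 cells. They were 6069.5 in RHS and 6005 in control in the Krt79 cells, and 2270 in RHS and 2642 in control in the remaining cells. The part of depth in these levels was not tested.

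Casp14 was found with Krtdap in 19 of 21 RHS cells and 27 of 30 control cells, and with Krt79 in 18 of 21 RHS cells and 27 of 30 control cells. Of the Krtdap UMIs, 876 of 1452 in RHS and 1380 of 2333 in control came from cells with at least 5 UMIs of Krt1 and Krt10 together. For Flg these cells gave 74 of 77 UMIs in RHS, from 2 cells, and 0 of 13 in control. For Cdsn they gave 25 of 58 in RHS, from 3 cells, and 0 of 56 in control. Where Krt1 and Krt10 UMIs exceeded those of Krt5, Krt14 and Krt15, in 17 differentiated-like cells in RHS and 31 in control, of which 2 in RHS and 6 in control lay within 2 UMIs of the boundary, Krtdap had 7272 CPM in RHS and 6942 in control, Casp14 758.2 in RHS and 868.7 in control, Sprr1a 10040 in RHS and 5453 in control and Sprr1b 3596 CPM in RHS and 884.2 in control. In these cells the ratio was 1.048 (0.9447 to 1.161) for Krtdap and 0.8728 (0.6339 to 1.194) for Casp14, whose intervals include no difference, while both Sprr1 genes were higher in the RHS library. A single control cell, with 1 Krt10 UMI and none of the basal keratins Krt5 and Krt14, held 65 of the 112 control Casp14 UMIs here. Most differentiated-like cells, 147 in RHS and 307 in control, held more UMIs of Krt5, Krt14 and Krt15 than of Krt1 and Krt10, and there Sprr1a was at 1.078 (1.012 to 1.148) and Krtdap at 1.304 (1.187 to 1.432). In another 6 cells in RHS and 22 in control these UMIs were equal, and Sprr1a had 33390 CPM in RHS and 15340 in control. They gave 675 Sprr1a UMIs in RHS, 366 of them in a single cell, and 360 in control. Cdsn gave 31 UMIs in RHS and 34 in control in these cells. When all keratinocyte-like cells were split in this way in place of the sub-clusters, the ratio was 0.9654 for Krtdap, 0.8102 for Casp14 and 1.462 for all members. The level of Krt10 itself was 2628 CPM in RHS and 688.2 in control in differentiated-like cells, and that of Krt79 was 5612 CPM in RHS and 3536 in control. The shares of cells with a UMI were close, at 20.0% in RHS and 18.33% in control for Krt10 and 56.47% in RHS and 57.5% in control for Krt79, and a single RHS cell held 582 of the 1973 Krt10 UMIs. The part of these keratin levels in the members' ratios was not tested.

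The members together differed less than in differentiated-like cells in the Lcn2 and Akr1c18, Car5b, Elovl3 and lower follicle-like cells. In cycling follicle-like cells they differed more and were lower in the RHS library. In the Lcn2 and Akr1c18 sub-cluster they had 5407 CPM in RHS and 5126 in control together, a ratio of 1.055 (1.019 to 1.092), and Sprr1a had 1.045 (1.009 to 1.083). Ivl was the 1 of 4 members counted as higher, against 5.46% of 6317 genes, with 140 UMIs in 48 RHS cells and 94 UMIs in 41 control cells and a ratio of 1.756 (1.342 to 2.305), or 1.334 with at most 10% mitochondrial UMIs. Sprr1b was at 1.133 and Sprr2h at 0.8667, and 0 of 4 were lower, against 10.0% of genes. The median log2 ratio was 0.12 over the 4 members and -0.03 over all genes. Sprr1a, the most abundant member of these cells, had a median of 45.71 UMIs per 10000 per cell in RHS and 41.94 in control.

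In the Car5b sebaceous-like cells the members had 3844 CPM in RHS and 3498 in control, a ratio of 1.099 (1.047 to 1.153), most of it from Sprr1a with 3706 CPM in RHS and 3239 in control. Sprr1b gave 11 UMIs in RHS and 84 in control, or 13.78 CPM in RHS and 79.97 in control, a ratio of 0.1723 (0.08287 to 0.3244). A single control cell held 29 of the 84 Sprr1b UMIs and a single RHS cell held 6 of the 11. The Sprr1b ratio thus rests on few cells. Sprr2h gave 17 UMIs in RHS and 73 in control, or 21.3 CPM in RHS and 69.49 in control, a ratio of 0.3065 (0.1694 to 0.5249). These 2 of 4 members, which reached 20 UMIs only in the control library, were counted as lower, against 9.05% of 5461 genes, while Ivl at 0.8774 and Sprr1a at 1.144 were neither, and 0 were higher, against 5.91% of genes. In the Elovl3 sebaceous-like cells the members had 1171 CPM in RHS and 953.6 in control, a ratio of 1.227 (1.141 to 1.321), and Sprr1a had 1097 CPM in RHS and 904.5 in control. Sprr2h gave 52 UMIs in RHS and 18 in control there, or 37 CPM in RHS and 12.99 in control, a ratio of 2.848 (1.639 to 5.172), with 27 of the 52 in a single cell, and it ranged between 1.495 with doublets kept and 7.643 at resolution 2.0. Krtdap gave 21 UMIs in RHS and 13 in control, a ratio of 1.592 (0.7609 to 3.461) whose interval includes no difference, and 0.7245 with cells weighted equally. These 2 of 3 members, which reached 20 UMIs only in the RHS library, were counted as higher, against 7.2% of 6026 genes, and 0 as lower, against 7.24%. The ratio of the sum in Elovl3 cells was below 1 with cells weighted equally, at 0.8869, and with each library clustered alone, at 0.6649. In the last setting the Elovl3 cells numbered 103 in RHS and 221 in control, and the control library formed no Car5b group. Its groups may thus differ in makeup. Sprr2h had opposite directions in the Car5b and Elovl3 cells.

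In the follicle-like cells the members were sparse. The lower follicle-like cells had 502.8 CPM in RHS and 340.5 in control, a ratio of 1.477 (1.188 to 1.835) that was below 1 with a minimum of 500 genes per cell, at 0.9141, and with clustering at resolution 2.0, at 0.8778. Krtdap gave 77 UMIs in 14 RHS cells and 15 UMIs in 7 control cells there, or 242 CPM in RHS and 27.61 in control, a ratio of 8.765 (4.999 to 16.41), and Sprr1a gave 77 UMIs in RHS and 158 in control, a ratio of 0.8321 (0.6253 to 1.099). Krtdap reached 20 UMIs only in the RHS library, and without the richest 3% of cells, 2 in RHS and 3 in control, 30 UMIs in RHS and 4 in control remained. The members without Krtdap had a ratio of 0.8337 in these cells. Krtdap was the 1 of 2 members counted as higher, against 7.81% of 3519 genes, and 0 were lower, against 18.8%. Melanocyte markers had 367.7 CPM in RHS and 114.1 in control in these cells, with 7 of 7 markers present in RHS and 6 of 7 in control, and their part in the result was not tested. In cycling follicle-like cells the members had 266.4 CPM in RHS and 737.7 in control, a ratio of 0.3611 (0.2863 to 0.4497). Sprr1a gave 69 UMIs in 9 of 52 RHS cells and 2926 UMIs in 255 of 492 control cells, or 224.1 CPM in RHS and 719.5 in control, a ratio of 0.3115 (0.2417 to 0.3955). Without the richest 3% of cells, 2 in RHS and 15 in control, 28 UMIs in RHS and 2144 in control remained, a ratio of 0.1791. The share of cells with a Sprr1a UMI was 17.31% in RHS and 51.83% in control, and 23.68% in RHS and 41.0% in control after thinning. Sprr1a was the 1 of 3 members counted as lower, against 19.2% of 9022 genes, and 0 were higher, against 12.6%. Ivl gave 0 UMIs in RHS and 27 in control, and Tgm1 gave 0 in RHS and 21 in control. Neither could be called, because 307850 RHS UMIs stood against 4066800 control UMIs. With RHS set at the floor of 3 counts the ratios were 1.468 and 1.887. Fibroblast markers had 584.7 CPM in RHS and 189.1 in control in the cycling cells (5 of 8 present in RHS and 8 of 8 in control). Sebaceous markers had 1793 CPM in RHS and 871.9 in control there (4 of 10 present in RHS and 5 of 10 in control). Upper follicle markers were lower in RHS cycling cells, with 2943 CPM in RHS and 5659 in control (4 of 10 present in RHS and 8 of 10 in control). Krt17 had 552.2 CPM in RHS and 1055 in control in the cycling cells. Krt25 had 532.7 CPM in RHS and 236.5 in control there, and Mki67 had 142.9 in RHS and 76.47 in control. Macrophage markers were higher in the RHS library in each of these sub-clusters, with 157.1 CPM in RHS and 34.97 in control in lower follicle-like, 107.2 in RHS and 29.75 in control in cycling, 120.6 in RHS and 45.47 in control in Lcn2 and Akr1c18, 43.85 in RHS and 16.18 in control in Car5b and 57.64 CPM in RHS and 26.71 in control in Elovl3 cells. Between 5 and 7 of the 10 macrophage markers were present in RHS and between 3 and 9 in control, and C1qa was at 0 in the RHS cells of each. Most RHS UMIs of these markers came from Lyz2, with 39 of 50 in lower follicle-like and 22 of 33 in cycling cells. It gave 84 of 135 in Lcn2 and Akr1c18, 26 of 35 in Car5b and 60 of 81 in Elovl3 cells of the RHS library. The part of these cell types, and of the makeup of each sub-cluster, in the members' ratios was not tested.

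Other genes of the barrier were counted by lists in differentiated-like cells, each with at least 20 UMIs in the library with the higher level, and are given as measured, higher and lower. Over all genes 6.63% were higher and 13.7% lower, so 1 lower gene of 8 is no more than that share. A gene could enter a list count by its level in a single library, so the list counts are a description and no support. Of 8 other envelope proteins 3 were higher (Crct1, Ppl and Scel) and 0 lower. Periplakin (Ppl), a plakin scaffold, had 187.8 CPM in RHS and 117.4 in control, desmoplakin (Dsp) 817.9 in RHS and 703.4 in control and dermokine (Dmkn) 873.9 CPM in RHS and 779 in control. Loricrin gave 11 UMIs in RHS and 0 in control and cornifelin (Cnfn) 12 in RHS and 1 in control, below the minimum. Of 11 keratins 4 were higher (Krt1, Krt10, Krt77 and Krt80) and 2 lower, Krt6b and Krt16. Krt6a, a keratin of stressed epidermis, had 1785 CPM in RHS and 2369 in control, Krt14 had 3771 in RHS and 4109 in control and Krt5 had 2450 CPM in RHS and 2075 in control. Of 10 barrier lipid genes 2 were higher, Alox12b and the fatty acid elongase Elovl4 with 94.58 CPM in RHS and 48.92 in control, and 0 lower.

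Of 12 proteases and inhibitors 4 were higher (Klk5, Klk11, Spink5 and Asprv1) and 4 lower (Klk8, Klk10, St14 and Ctsd). Klk7, a kallikrein that cleaves corneodesmosin, had 1235 CPM in RHS and 893.1 in control, and Asprv1, a protease that processes filaggrin, had 138.5 CPM in RHS and 78.28 in control. Of 8 desmosome genes 0 were higher and 2 lower (Dsg2 and Pkp3), and Perp had 2392 CPM in RHS and 2006 in control. Of 19 regulators 1 was higher (Hopx) and 1 lower (Cebpa), while the differentiation factors Klf4, with 789.9 CPM in RHS and 644.2 in control, and Ovol1, with 547.5 CPM in RHS and 500.7 in control, passed neither threshold. Of 8 tight junction genes 1 was lower (Cldn12), and of 8 S100 genes of the differentiation complex 1 was lower (S100a4), with none higher in either list. Of 8 epidermal stress and alarm genes 4 were lower (Il33, Il1a, Slpi and Areg), with Areg, an epidermal growth factor receptor ligand, at 131.9 CPM in RHS and 304.4 in control. Of 4 vitamin D response genes 1 was lower (Cd14), and Cyp24a1, the vitamin D 24-hydroxylase, had 515.5 CPM in RHS and 725.2 in control. Of 8 cell stress and RNA quality genes 5 were higher (Fos, Hspa1a, Hspa1b, Atf3 and Dnajb1), with Hspa1b at 2725 CPM in RHS and 1368 in control. The median log2 ratio was 0.67 for the cell stress list, 0.27 for proteases, 0.24 for keratins, 0.21 for barrier lipids, 0.2 for other envelope proteins, 0.16 for regulators, -0.03 for tight junctions, -0.06 for desmosomes, -0.15 for the S100 genes, -0.32 for vitamin D response and -0.5 for stress and alarm, beside -0.03 over all genes. Cell stress genes were higher beside the members, and their part in the members' ratios was not tested. In the other sub-clusters 3 to 6 of the 8 cell stress genes were also higher. Fos was lower in cycling follicle-like and Car5b sebaceous-like cells, and Malat1 was lower in lower follicle-like cells.

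Some members were also counted outside the keratinocytes. Over both libraries Krtdap had 261.6 CPM in keratinocyte-like cells and 2.876 CPM in other cells, Ivl had 30.66 CPM in keratinocyte-like and 0.08916 in other cells, and Casp14 had 16.3 CPM in keratinocyte-like and 0.2452 in other cells. Cdsn was the exception, with 8.704 CPM in keratinocyte-like and 6.442 in other cells. Tgm1 had 4.547 CPM in keratinocyte-like and 1.07 in other cells. The Cdsn UMIs outside keratinocytes came mostly from 1 unnamed cluster led by Slc26a7, Pappa2 and Rasd1.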

How the data were processed

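The deposited skin matrices give unnormalized UMI counts of genes in cell barcodes, per the file headers, and their values were whole numbers with at least 500 UMIs in every barcode. The submitters' processing notes name the build GRCm39, R 3.6.0, Seurat 5.1.0 and Cell Ranger, with no role for each. No aligner or barcode caller of the skin libraries is named there or in the labels. They held 13339 (RHS and MC903) and 12979 (control) barcodes. Barcodes under 200 genes (92 in RHS and 54 in control) or over 20% mitochondrial UMIs (179 in RHS and 202 in control) were left out. Scrublet, run per library at an expected share of 6%, removed 115 (0.88%) in RHS and 146 (1.148%) in control, so undetected doublets remain.

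Counts were scaled to 10000 per cell, and 2000 variable genes without the members entered 30 components, 15 neighbours and clustering at resolution 1 on both libraries together, and at 0.5 within the keratinocytes (scanpy 1.11.5, anndata 0.12.19, igraph 0.11.9, scikit-learn 1.9.0, numpy 2.4.6, scipy 1.17.1, pandas 2.3.3, matplotlib 3.10.9, Python 3.11.15). A name needed 3 markers, each with a UMI in 5% of the cells and 2 times the average level elsewhere. Sub-clusters with Ptprc at 50 CPM or more were set apart as mixed. The cluster naming rule, the Ptprc limit, the sub-cluster names and the matching of clusters across alternatives were chosen after seeing the data. The members and gene lists were chosen with earlier results of these data known.

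UMIs were summed per sub-cluster and library and scaled to CPM, with 95% intervals from the exact Poisson distribution. Ratios of RHS and MC903 over control have exact conditional binomial intervals. These were checked on simulated Poisson counts, the model they assume. That check leaves out the clustering of UMIs in few cells and cannot tell how well the intervals hold here. A gene at 0 was set at a floor of 3 counts. Cells are not replicates, so no test was run. Of the Sprr and Lce genes, those with at least 20 UMIs in a library of keratinocyte-like cells were named in full, together with the 10 other members. From each list the genes past 1.5-fold were named, and values were given for up to 3 genes with the highest CPM, with Krt1, Krt10, Krt79, Lor and Cnfn added after their values were seen. The alternatives changed the filters, doublets, clustering, subtype rule, denominator, weighting of cells, free RNA, richest cells, fold and count minimum. Promoters came from RefSeq for GRCm38.p6, and overlapping genes from a GRCm38 annotation; neither build's coordinates were mixed with the counts, which rest on symbols. The ganglia library was not used.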

Additional observations from a re-analysis of the deposited data

Results flagged for a closer look

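Sprr2h had a ratio of RHS over control of 2.848 (1.639 to 5.172) in Elovl3 sebaceous-like cells and of 0.3065 (0.1694 to 0.5249) in Car5b sebaceous-like cells, so the 2 kinds of sebaceous-like cells went in opposite directions. Most of the Sprr2h UMIs of the RHS Elovl3 cells lay in a single cell. The gene was not counted as higher there without the richest 3% of cells. Sprr1b had 3.618 (3.116 to 4.206) in differentiated-like cells and 0.1723 (0.08287 to 0.3244) in Car5b sebaceous-like cells. In differentiated-like cells Sprr1b was at 1.425 without the richest 3% of cells and at 0.8951 without the 5 richest cells of each library. In Car5b cells a single control cell held 29 Sprr1b UMIs. Both of its ratios thus rest on few cells. Sprr1a had 1.626 (1.551 to 1.705) in differentiated-like cells and 0.3115 (0.2417 to 0.3955) in cycling follicle-like cells. None of these differences between sub-clusters was tested, since each group had 1 library.

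Cdsn was counted outside the keratinocytes at 131.2 CPM in RHS cells and 134.6 CPM in control cells of an unnamed cluster led by Slc26a7, Pappa2 and Rasd1. Differentiated-like keratinocytes had 77.26 CPM in RHS and 30.44 in control. The Cdsn UMIs numbered 189 in 107 of 1294 RHS cells and 334 in 161 of 1657 control cells, a ratio of 0.9753. Of the 268 cells with Cdsn, 5 (1.866%) had a UMI of Krt5, Krt14, Krt1 or Krt10, beside 165 of 2951 (5.591%) in the whole cluster. Casp14, Ivl and Dsc1 were at 0 there, and Sprr1a had 15.97 CPM in RHS and 19.74 in control. The cluster also had 284.7 CPM of Pdgfra in RHS and 205.1 in control, and 12.5 CPM of Ptprc in RHS and 9.67 in control.

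Tgm1 had 16.71 CPM in RHS cells and 37.21 CPM in control cells of the mast or basophil-like cluster led by Il4, Mcpt8 and Hgf, from 10 UMIs in RHS and 27 in control. Over both libraries it had 4.547 CPM in keratinocyte-like cells.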

How the results depend on the processing

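No paired analysis was possible because each group had 1 library, and no replicate could be left out. The causes of the shifts below were not tested. Of the alternatives for single genes and families, 322 stayed within the counting interval, 115 moved beyond it with the same direction or without a call, and 4 reversed. In differentiated-like cells these were Sprr1b without the 5 richest cells of each library (0.8951), Krtdap and Casp14 by the keratins of each cell (0.9654 and 0.8102), and Cdsn with cells weighted equally (0.8356). For all members, differentiated-like cells gave 1.536 with at least 500 genes, 1.816 with at most 10% mitochondrial UMIs, 1.531 with doublets kept, 1.411 at resolution 0.5, 1.556 with members kept in clustering, 1.479 with libraries clustered alone, 1.462 by keratins, 1.246 weighted equally, 1.235 without the 5 richest cells, 1.535 without the cell with most Flg of each library and 1.407 without the richest 3% of cells, the last 2 alternatives chosen after seeing the data. The Lcn2 and Akr1c18 sub-cluster gave 1.13 alone and 1.122 weighted equally. Lower follicle-like cells gave 0.9141 with 500 genes, 0.8778 at resolution 2.0, 1.03 with members kept and 1.093 weighted equally. Cycling follicle-like cells gave 0.06994 without the 5 richest cells, a far larger part of the 52 RHS cells than of the 492 control cells, and 0.2177 without the richest 3%. Car5b cells gave 1.03 and 1.044 at resolutions 0.5 and 2.0, 0.9909 with members kept and 0.9996 without the 5 richest. Elovl3 cells gave 1.137 with 500 genes, 1.039 with 10% mitochondrial UMIs, 1.389 and 1.465 at resolutions 0.5 and 2.0, 0.6649 alone and 0.8869 weighted equally. The 7 members higher in differentiated-like cells became 4 with 500 genes, doublets kept, resolution 0.5, libraries alone, keratins, a 2-fold threshold or without the Flg cells, 3 weighted equally, and 1 without the 5 richest or the richest 3%. The 3 lower became 0 by keratins, where Sprr2h (2 UMIs in RHS and 17 in control), Sprr2d and Sprr2f fell below the minimum, and 1 without the 5 richest or the richest 3%, where Sprr2d and Sprr2f fell below it. In the Lcn2 and Akr1c18 sub-cluster the 1 higher became 2 with members kept or a minimum of 1 count, and 0 at 2-fold, and the 0 lower became 1 with doublets kept, resolution 0.5 or members kept, and 2 with 500 genes, resolution 2.0, libraries alone or 1 count. In lower follicle-like cells the 1 higher became 0 with 500 genes, members kept or without the 5 richest, and the 0 lower became 1 at resolution 2.0 or weighted equally. The 0 higher became 3 in cycling and 2 in Car5b cells with 1 count, and the 2 lower in Car5b cells became 1 without the 5 richest. In Elovl3 cells the 2 higher became 1 with doublets kept, equal weight, 2-fold or at least 50 counts, and 0 without the 5 richest or the richest 3%, and the 0 lower became 1 with 500 genes or doublets kept, 2 with 10% mitochondrial UMIs, 3 alone and 4 with 1 count. The lower follicle-like sub-cluster did not form again with 10% mitochondrial UMIs, doublets kept, resolution 0.5 or libraries alone, nor the Car5b sub-cluster with 500 genes, 10% mitochondrial UMIs or doublets kept, nor in the control library alone.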

Other observations

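In the list of proteases and inhibitors, which holds enzymes that shed corneocytes and their inhibitors, several genes were lower in the RHS library in 3 sub-clusters, by the same count rule. In the Lcn2 and Akr1c18 sub-cluster 4 of 7 measured genes were lower and 0 higher (Klk6, Klk7, Klk10 and Ctsd), against 10.0% of all genes lower, with Klk7 at 119.7 CPM in RHS and 314.5 in control and Klk10 at 75.92 CPM in RHS and 257.6 in control. In Car5b sebaceous-like cells the same 4 of 7 were lower and 0 higher, against 9.05% of all genes lower, with Klk7 at 141.6 CPM in RHS and 355.1 in control and cathepsin D (Ctsd) at 22.55 CPM in RHS and 88.53 in control. In Elovl3 sebaceous-like cells 7 of 8 were lower and 0 higher, among them the kallikrein inhibitor Spink5, against 7.24% of all genes lower, with Klk7 at 158 CPM in RHS and 314 in control and Ctsd at 113.1 CPM in RHS and 203.6 in control. The median log2 ratio of the list was -0.63, -0.72 and -0.82 in these sub-clusters, beside -0.03, 0.0 and 0.01 over all genes counted there. In differentiated-like cells the same list had 4 higher and 4 lower of 12, in cycling follicle-like cells 1 higher (Serpinb8) and 4 lower of 8, and in lower follicle-like cells 0 higher and 1 lower of 1. Cebpa, a factor of sebocyte and keratinocyte differentiation, was counted as lower in 5 of the 6 sub-clusters, all but the lower follicle-like cells. It was at 228 CPM in RHS and 803.5 in control in Car5b cells, and in Elovl3 cells at 340.1 CPM in RHS and 936.3 in control. These values have no replicate, and the makeup of the sub-clusters was not tested as their source.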
